A study of Mus musculus with 8 samples.

Results

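Icam2, Flt1, Plvap and Sox17 are genes of vascular endothelium whose probes lay on opposite sides of 0 in the lungs of mice carrying a Fra-2 transgene. They were taken by name, with every probe the annotation gives them, which made 5 probes of 20794 and 4 genes of the 8741 named here: 2 probes of Flt1 and 1 each of Icam2, Plvap and Sox17. All 5 had a value on every array and entered the tests across probes. The genes were picked because of their own ratios to the wild-type pool, so those ratios are described below and carry no test.

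The tested animals were 4 male mice transgenic for fra-2 (the Fosl-2 gene) on a C57BL6 x CBA background, aged 14 weeks, and the reference was RNA pooled from 4 wild-type males of the same background, age and organ. Each transgenic mouse was hybridised on a pair of 2-colour arrays with the dyes exchanged, which gave 8 arrays, and the wild-type pool counts as 1 control sample because its animals were not measured one by one. The promoter that drives the transgene is not given in the sources used here, and lungs of 6 and 10 weeks, which the series also covered, are not analysed here. The values are log2 ratios of transgenic lung over pool. The direction is likely only, because it follows the order of the channels in the labels, and under the opposite order every sign given here would turn round.

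Between 20585 and 20729 log2 ratios were usable on each array, and the number of mice and the single pool limit the precision. One array stood apart: that of mouse 4 with the transgenic RNA in Cy3 had an interquartile range of 0.906 on the log2 scale, against 0.451 to 0.521 on the other 7, and correlated with the other array of the same mouse at 0.389, against 0.587 to 0.685 in the other mice. The means of the 5 probes are therefore also given without it, and other values where leaving it out ends a call. No probe of Fosl2 is named here, so the transgene itself could not be checked, and a ratio shows no level, so the labelled organ could not be checked against marker levels either.

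Endothelial cells line the vessels and, in lung, form the capillary wall across which gas is exchanged. ICAM-2 is an adhesion protein of their surface that leukocytes bind through the integrin LFA-1; platelets and lymphocytes carry it too. FLT1, or VEGFR-1, is a receptor for VEGF-A, VEGF-B and placental growth factor that also exists as a soluble form which captures the ligand, and monocytes express it as well. PLVAP forms the diaphragms that span caveolae and fenestrae of endothelium. SOX17 is a transcription factor of the SoxF group linked to arterial identity. Fra-2 belongs to the AP-1 family, which binds the motif TGANTCA, and TGACGTCA is bound by the related CREB and ATF factors.

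Among the 4 genes, Flt1 matched the RefSeq promoter table used here (build GRCm38.p6). Its 250 bases before the transcript start are shown because Flt1 is one of the genes the results turn on. Those of Nrp1, the gene of a VEGF coreceptor, are set beside them as a gene of the same receptor system. Nrp1 was called lower, while the Flt1 probes differed from each other, as given below. Capitals mark TGACGTCA, TATAAA and GGAAG, the core bound by ETS factors, with GGAAG on the opposite strand reading CTTCC.
Flt1, chr5:147726012-147726261, minus strand: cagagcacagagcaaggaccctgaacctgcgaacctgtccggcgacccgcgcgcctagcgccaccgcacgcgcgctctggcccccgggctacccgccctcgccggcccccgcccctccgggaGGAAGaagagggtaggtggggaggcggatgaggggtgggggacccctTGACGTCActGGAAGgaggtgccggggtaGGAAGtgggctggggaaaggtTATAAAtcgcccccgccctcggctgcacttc
Nrp1, chr8:128358823-128359072, plus strand: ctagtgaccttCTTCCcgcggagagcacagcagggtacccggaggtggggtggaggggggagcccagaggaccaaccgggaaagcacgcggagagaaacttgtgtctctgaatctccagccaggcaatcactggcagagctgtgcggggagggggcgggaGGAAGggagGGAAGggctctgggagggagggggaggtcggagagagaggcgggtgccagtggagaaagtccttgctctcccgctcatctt

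Both strands were searched for each motif, with N read as any base. The Flt1 window held 0 matches of TGANTCA, 1 of TGACGTCA, 3 of GGAAG and 1 of TATAAA. The Nrp1 window held 3 matches of GGAAG and 0 of the other motifs. Over all 32851 promoter windows of this length, 6.75% held TGANTCA, 1.55% TGACGTCA, 64.1% GGAAG and 12.4% TATAAA. No 2 of these motifs contain each other, and the matches are letters in a window, not measured binding.

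The adhesion gene Icam2 (Entrez Gene 15896, row 19961 of the value table) was below the pool on all 8 arrays. With the transgenic RNA in Cy5, the log2 ratios were -0.51, -1.46, -0.62 and -1.95 in mice 1 to 4, and with it in Cy3 they were -0.69, -0.75, -0.67 and -1.29. Mice 2 and 4 were the lower ones under either dye. The mean over mice was -0.99 ± 0.48 (SD, n = 4 mice), a 1.99-fold difference from the pool. It was -1.07 without the wide array of mouse 4. Lower Icam2 can reflect a smaller share of the cells that carry it or less RNA per cell, which cannot be told apart in whole lung. For every gene below, higher or lower, the share of cells and the RNA per cell likewise cannot be told apart.

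The receptor gene Flt1 (Entrez Gene 14254) had probes that differed from each other. On the probe in row 3082 every array was below 0: the ratios were -0.84, -1.30, -0.53 and -1.34 in mice 1 to 4 with the transgenic RNA in Cy5, and -1.18, -1.32, -0.64 and -1.64 with it in Cy3. The mean was -1.10 ± 0.39 (SD, n = 4 mice), a 2.14-fold difference from the pool, and -1.06 without the wide array. Mouse 3 was nearest to the pool and mouse 4 farthest from it.

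The Flt1 probe in row 2265 lay on both sides of 0. Its ratios were 0.50, -0.68, -0.01 and 0.06 with the transgenic RNA in Cy5, and 0.35, -0.30, -0.20 and -0.54 with it in Cy3. Mouse 1 was above the pool on both arrays, and 5 of 8 arrays were below it. The mean of -0.10 ± 0.39 (SD, n = 4 mice) was smaller than its own spread, and it was 0.028 without mouse 2 and -0.03 without the wide array. The annotation assigns the same transcript record to both rows, and their means differed by 0.997 ± 0.43 on the log2 scale (SD, n = 4 mice), with row 2265 higher in 4 of 4 mice. Among 1900 genes with 2 probes, the median difference between probes was 0.23, and 43 genes (2.26%) had probes at least as far apart as those of Flt1. Which of them follows the Flt1 transcript was not tested, and the mean of both, -0.60 ± 0.33, describes neither. The names rest on an inferred offset between annotation and value table, and whether 1 of the 2 rows is wrongly named was not tested.

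The diaphragm gene Plvap (Entrez Gene 84094, row 16395) was below the pool in 4 of 4 mice but varied widely among them. The log2 ratios were -0.19, -0.46, 0.17 and -0.99 in mice 1 to 4 with the transgenic RNA in Cy5, and -0.54, -0.96, -0.26 and -1.56 with it in Cy3. The mouse means ran from -0.05 in mouse 3 to -1.27 in mouse 4. Their mean was -0.60 ± 0.52 (SD, n = 4 mice), a 1.51-fold difference from the pool. It was -0.37 without mouse 4 and -0.53 without the wide array alone. The value with the transgenic RNA in Cy3 was the lower one in every mouse, by 0.35 to 0.57.

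The transcription factor gene Sox17 (Entrez Gene 20671, row 3936) was above the pool on all 8 arrays. The log2 ratios were 0.51, 0.47, 0.70 and 0.61 in mice 1 to 4 with the transgenic RNA in Cy5, and 0.58, 0.29, 0.88 and 0.55 with it in Cy3. The mice lay close together, between 0.38 in mouse 2 and 0.79 in mouse 3. The mean was 0.57 ± 0.17 (SD, n = 4 mice), a 1.49-fold difference from the pool, and 0.58 without the wide array. The ratios with either dye averaged 0.57 in Cy5 and 0.58 in Cy3.

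**Figure D1:**
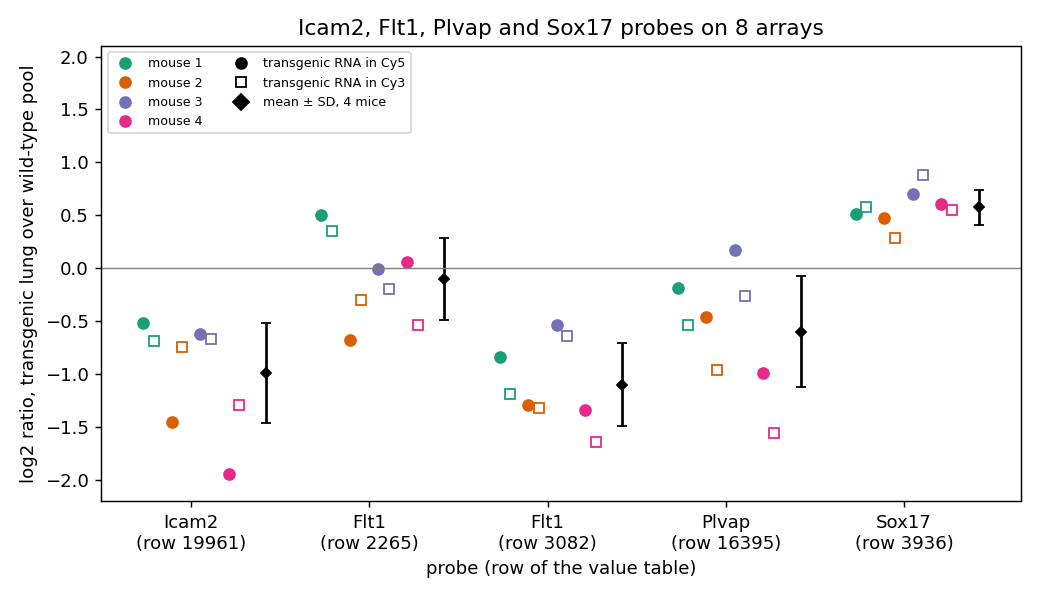
Log2 ratio of transgenic lung over the wild-type pool (vertical axis) on each of 8 arrays for the 5 probes, with mice by colour, dye by symbol, and mean ± SD over 4 mice as black diamonds. Icam2 and Flt1 row 3082 lie below 0 and Sox17 above 0 on all 8 arrays, while Flt1 row 2265 and Plvap have arrays on both sides.

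Of the 5 probes, 2 were below 0 and 1 above 0 on all 8 arrays. Over the 20392 probes with all 8 values, 14.7% were below and 9.81% above 0 on all arrays. Against 0, limma called 25.7% of all probes tested, 11.1% higher and 14.6% lower (adjusted p under 0.05). Since the genes were chosen on these ratios, nothing is read from that count. Of all probes tested, 0.432% had a lower mean than Flt1 row 3082, 0.698% than Icam2 and 4.43% than Plvap, and 3.66% had a higher mean than Sox17. The Flt1 probe in row 2265 stood within the bulk, with 35.1% of probes lower.

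The distance between Sox17 and the lower genes was held by each mouse. Sox17 minus Icam2 was 1.15, 1.48, 1.43 and 2.20 on the log2 scale in mice 1 to 4, and Sox17 minus Flt1 row 3082 was 1.56, 1.69, 1.38 and 2.07. Against Plvap the difference was 0.91, 1.09, 0.84 and 1.85. Mouse 4 had the largest of each: Icam2, Flt1 row 3082 and Plvap were lowest there while Sox17 stood at 0.58. On the Cy5 array of mouse 4 alone, which leaves out the wide one, Sox17 exceeded Icam2 by 2.56, Flt1 row 3082 by 1.95, Plvap by 1.60 and Flt1 row 2265 by 0.55. Against Flt1 row 2265 it was 0.12 in mouse 1 and 0.82 to 0.89 in the others. The direction of these differences comes from the choice of genes.

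Whether the mice differed from each other is separate from the mean ratio that chose the genes, and it was tested for every probe by an F test in limma, fitted to the 8 single arrays together with a dye term. Its residual is the disagreement between the arrays of the same mouse, so it sets the spread between animals against technical noise only, for RNA of 4 animals. Of 20392 probes, 201 passed after Benjamini-Hochberg adjustment (0.986%), and 0 of the 5 probes did. At an unadjusted p under 0.05 there were 4 of 5, against 3263 (16%) of all probes. Plvap came nearest (limma, adjusted p = 0.0527), with a range of 1.23 between the lowest and the highest mouse. It passed the F test at adjusted p = 0.0433 after quantile normalization, and at adjusted p = 0.0216 at the gene level. The gene-level test covered 8645 named genes, of which 2.74% passed. Plvap has 1 probe, so that test used the same Plvap values and differed in the set tested with it. Without the wide array the adjusted p of Plvap was 0.0651 by the F test. Flt1 row 3082 had a range of 0.90 (adjusted p = 0.127) and Icam2 of 1.02 (adjusted p = 0.242). Flt1 row 2265 had a range of 0.91 (adjusted p = 0.287). Sox17 had the smallest, 0.41 (adjusted p = 0.459), and its SD over mice was larger than that of 41.7% of probes, against 95.6% for Plvap and 94.2% for Icam2.

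The effect of the dye was tested with limma on the difference between the arrays of a mouse, halved. Of 20392 probes, 1 passed (0.0049%), and it was none of the 5. Plvap had the largest effect of the 5 relative to its spread, 0.23 ± 0.05 (SD, n = 4 mice, limma adjusted p = 0.17), with the sign the same in 4 of 4 mice. Its unadjusted p was 0.00364; 24.1% of all probes had one under 0.05. Plvap averaged -0.37 on the Cy5 arrays and -0.83 on the Cy3 arrays. For the other probes the halved difference lay between -0.14 and 0.10, with adjusted p from 0.312 to 0.986.

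Of 28 listed markers of lung endothelium other than the 4 genes, 17 were measured. By the F test at the gene level 2 of the 17 differed between mice, Cdh5 and Emcn, against 2.74% of all named genes, and their median log2 ratio was 0.03, -0.08, 0.11 and -0.33 in mice 1 to 4. The lowest mouse was mouse 4 for 14 of the 17 markers (82.4%), against 41.3% of all named genes. On the Cy5 arrays alone, which leave out the wide array, these shares were 64.7% of the markers and 30.1% of all named genes. The VE-cadherin gene Cdh5 had 0.08, -0.70, 0.05 and -1.14 in mice 1 to 4, (limma F test, adjusted p = 0.0217). The platelet endothelial adhesion gene Pecam1 had -0.01, -0.53, 0.17 and -0.48 and did not pass (adjusted p = 0.159). The endomucin gene Emcn had 0.91, -0.08, 0.83 and -0.17 (adjusted p = 0.0208). Mice 2 and 4 were the lowest pair for 9 of the 17 markers and also for Icam2, Plvap and the lower Flt1 probe. The 9 include Cdh5, Pecam1 and Emcn, which were picked after their values were seen. Mouse 2 was among the 2 lowest for 10 markers and the highest for 2. How often all named genes had this pair lowest was not counted, so nothing is read from the count of markers. The part of a difference in endothelial content in these values was not tested.

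**Figure D2:**
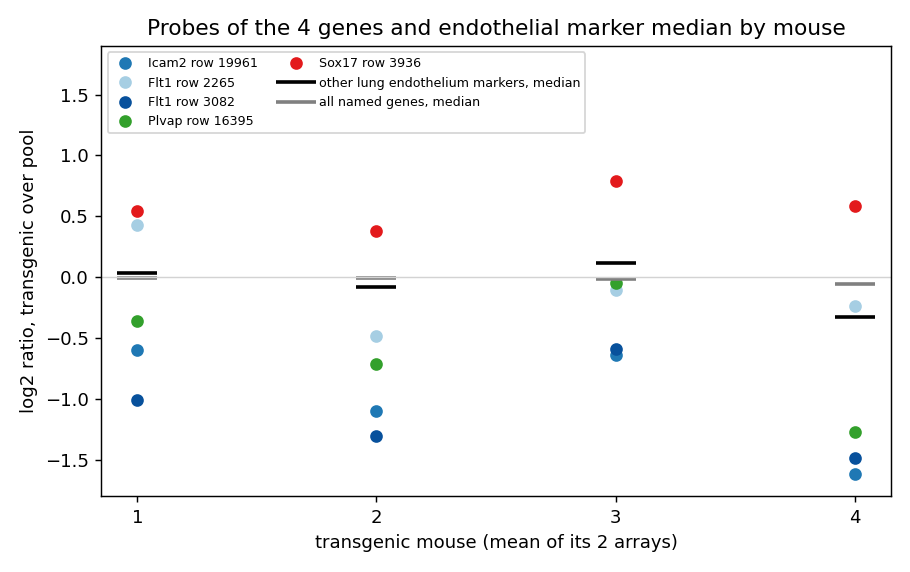
Log2 ratio over the pool (vertical axis) by transgenic mouse, each point the mean of 2 arrays, for the 5 probes, with bars for the median of 17 other lung endothelium markers (black) and of all named genes (grey). Icam2, Plvap and Flt1 row 3082 are lowest in mouse 4, where the marker median is -0.33, while Sox17 stays between 0.38 and 0.79.

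Across the vascular lists, genes other than the 4 went both ways, more of them lower than higher. The lists also hold genes of other cells, such as the leukocyte gene Itgb2. Of 166 listed genes 100 were measured, of which 11 rose and 25 fell by limma at the gene level (adjusted p under 0.05), or 36.0%, with a median of -0.12. Over all 8692 named genes 13.5% were higher and 18.4% lower, 31.9% in all, with a median of -0.01. The share called was thus near that of all genes. On the Cy5 arrays alone the calls of Acvrl1, Cavin3, Egln2, Foxp1, Gata2 and Jam2 were lost, and on the Cy3 arrays alone those of Cavin1, Dnm2, Ehd1, Gata2, Gja4, Jag2, Jam3, Mef2c, Nostrin, Ramp2 and Rbpj. Averaged over probes, none of the 100 was as low as Icam2, although 1 probe of Ednrb was at -1.56. Averaged likewise, 9 were lower than Plvap: Ednrb (-0.87), Ehd4, Angptl4, Nrp1, Vegfa, Foxo1, Foxc1, Reln and Eng. Higher than Sox17 were 4, namely Itgb2, Cd34, Gja4 and Egln3. Since Icam2, Flt1, Plvap and Sox17 were chosen on these ratios, nothing is read from their place among the listed genes.

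Among the partners of ICAM-2 and other genes of leukocyte adhesion, 2 rose and 6 fell of 19 measured, with a median of -0.21. The share called was 42.1%, against 31.9% of all named genes. Itgb2, the beta chain of LFA-1 and a gene of leukocytes, rose by 1.18 ± 0.55 (limma adjusted p = 0.0051), with 1.89, 0.59, 1.28 and 0.96 in mice 1 to 4. The alpha chain gene Itgal had probes at -0.41 and 0.34, and its mean of -0.03 did not pass (adjusted p = 0.793). Cd34, a sialomucin of endothelium and other stromal cells, rose by 1.17 ± 0.49 (adjusted p = 0.00376). The genes that fell were the integrin gene Itgb1 (-0.55 over 6 probes, which ranged from -0.96 to 0.30), Vcam1 (-0.52), the membrane-cytoskeleton linkers Msn (-0.48) and Rdx (-0.35), and the junctional adhesion genes Jam2 (-0.41) and Jam3 (-0.23). Rdx had probes at -0.06 and -0.64, and Jam3 at -0.08 and -0.38. Icam1 had -0.34 and did not pass (limma adjusted p = 0.0844). The calls of Msn, Rdx and Jam2 were lost without mouse 2 (adjusted p = 0.0514 for Msn and 0.0594 for Rdx), Jam2 also without mouse 4, and Jam3 without any 1 of the 4 mice.

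The ligands of FLT1 that were measured were lower. Vegfa had -0.63, -0.60, -0.77 and -0.84 in mice 1 to 4 and fell by 0.71 ± 0.11 (limma adjusted p = 0.00152). Vegfb fell by 0.50 ± 0.17 (adjusted p = 0.00664). Placental growth factor (Pgf) and the main signalling receptor of the family, Kdr, had no probe named here. Of the other genes of the VEGF list, the coreceptor gene Nrp1 fell by 0.80 ± 0.16 (adjusted p = 0.00148), the phospholipase gene Plcg1 by 0.38 over 3 probes (-0.06, -0.88 and -0.21) and the oxygen sensor gene Egln2 by 0.29, while Egln3 rose by 0.63 ± 0.25 (adjusted p = 0.00571). In all 1 rose and 5 fell of 12, or 50% called, against 31.9% of all named genes. Egln2 did not pass without mouse 2, 3 or 4. Of the angiopoietin and Tie list 3 genes were measured, and Angptl4, the gene of an inhibitor of lipoprotein lipase, fell by 0.81 ± 0.34 (adjusted p = 0.00499); the receptor gene Tie1 had -0.04 (adjusted p = 0.719).

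In the list of caveolae and diaphragms, where PLVAP acts, 4 rose and 2 fell of 9 measured. The share called was 66.7%, against 31.9% of all named genes. The median was 0.18, the value of Cav3, which did not pass (limma adjusted p = 0.151). The caveolar coat genes Cavin3 (0.52) and Cavin1 (0.39), the endocytic gene Ehd1 (0.40) and the dynamin gene Dnm2 (0.45 ± 0.12, limma adjusted p = 0.00661) rose. Ehd4 fell by 0.85 ± 0.14 (adjusted p = 0.00114), with its 2 probes at -0.85 and -0.86, and Nostrin, which encodes a regulator of nitric oxide synthase trafficking, by 0.36. The caveolin genes Cav1 and Cav2 had no probe named here. Calls in this list were fragile: Cavin1, Ehd1 and Nostrin were lost without any 1 of the 4 mice, Cavin3 without mouse 1 or 3, and Dnm2 on the Cy3 arrays alone (adjusted p = 0.0935).

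Of 25 measured genes in the list of SoxF, Notch and arterial fate, to which SOX17 belongs, 3 rose and 2 fell, and the median was -0.02. The share called was 20%, below the 31.9% of all named genes. The other SoxF genes, Sox7 and Sox18, had no probe named here. Gja4, the gene of connexin 37 in arterial endothelium, rose by 0.79 ± 0.68 (limma adjusted p = 0.0362), with 1.44, -0.02, 1.24 and 0.49 in mice 1 to 4. Its call was lost without mouse 1, 3 or 4 (adjusted p of at most 0.114), and it differed between mice at the gene level (F test, adjusted p = 0.0178). The Notch ligand gene Jag2 (0.37, probes at -0.04 and 0.78) and the Notch effector gene Rbpj (0.33) rose, the first not without mouse 1 and the second not without any 1 of the 4 mice. The receptor genes of the BMP and TGF-beta families Eng (-0.61 ± 0.29, adjusted p = 0.00901) and Acvrl1 (-0.56 ± 0.33, adjusted p = 0.016) fell; Acvrl1 was lost without mouse 2 and on the Cy5 arrays alone (-0.38, adjusted p = 0.0568). Notch1 (-0.29) and Notch4 (-0.34) did not pass (adjusted p = 0.0743 and 0.0719).

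Of 18 measured transcription factor genes of endothelium 0 rose and 6 fell, with a median of -0.21. The share called was 33.3%, near the 31.9% of all named genes. The forkhead genes Foxo1 (-0.70 ± 0.28, limma adjusted p = 0.00513), Foxc1 (-0.66 ± 0.26, adjusted p = 0.00522) and Foxp1 (-0.52) fell. So did Mef2c (-0.43), Klf6 (-0.39) and Gata2 (-0.30). Mef2c had probes at -0.83 and -0.03, and Klf6 at -0.71 and -0.08. Neither Gata2 probe passed by itself (-0.23 and -0.37, limma adjusted p = 0.128 and 0.0789 over all probes). The ETS genes Erg (-0.21) and Fli1 (-0.14) did not pass (adjusted p = 0.307 and 0.253). Mef2c did not pass on the Cy3 arrays alone (adjusted p = 0.0562), Foxp1 not without mouse 1, 2 or 4, Klf6 not without mouse 2, and Gata2 not without mouse 1, 2 or 4 nor without the wide array.

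**Figure D3:**
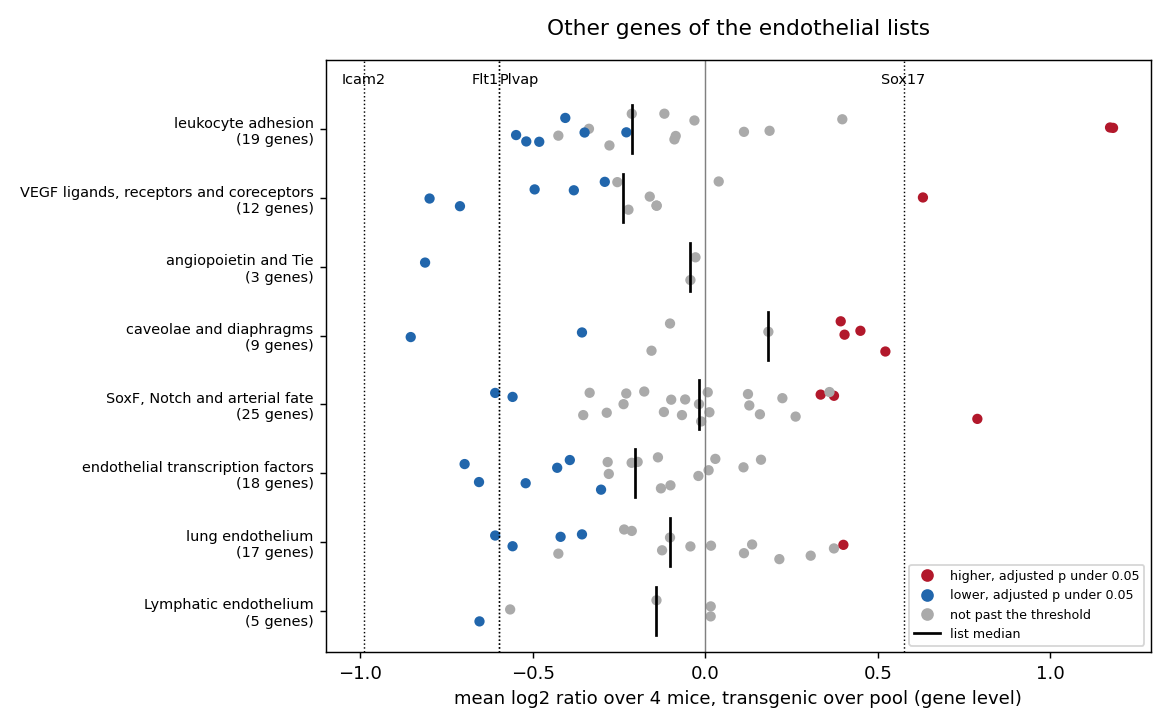
Mean log2 ratio over 4 mice (horizontal axis) for the measured genes of 8 vascular lists, each point 1 gene, coloured by limma call, with black bars for list medians and dotted lines for the 4 genes (Flt1 as the mean of its 2 probes). As averages over probes, all plotted genes lie to the right of Icam2 at -0.99, and Itgb2, Cd34, Gja4 and Egln3 lie to the right of Sox17 at 0.57.

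Of the 17 measured endothelium markers, 1 rose and 4 fell, with a median of -0.10. The share called was 29.4%, near the 31.9% of all named genes. Ramp2, which encodes a partner of the adrenomedullin receptor, rose by 0.40 ± 0.22 (limma adjusted p = 0.0209), a call lost without mouse 1 or 2 and on the Cy3 arrays alone, where it had 0.15 (adjusted p = 0.49). Beside Eng, Acvrl1 and Nostrin, the scavenger receptor gene Stab1 fell by 0.42 ± 0.24 (adjusted p = 0.0211), a call lost without mouse 2. Vwf (0.02), Tie1 (-0.04), Nos3 (-0.10) and Ace (0.14) did not pass. Nor did Emcn (0.37), Mmrn2 (0.31), Egfl7 (0.21), Esam (0.11), Robo4 (-0.13), Pecam1 (-0.21), Slco2a1 (-0.24) and Cdh5 (-0.43). The capillary receptor gene Ednrb fell by 0.87 ± 0.33 as the mean of probes at -0.19 and -1.56 (adjusted p = 0.00377). Among 5 lymphatic genes, Reln fell by 0.65 ± 0.25 (adjusted p = 0.00499), and Prox1 (0.02) did not pass.

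Markers of other cells, some of which can carry the 4 genes, were counted in the same way. Over all named genes 13.5% were higher and 18.4% lower, or 31.9% called. The shares called of platelet (33.3%), mural cell (37.5%) and airway epithelium markers (28.6%) were near that. Those of lymphocyte (57.1%), type 1 epithelium (80%), monocyte and macrophage (83.3%) and cycling cell markers (87.5%) were above it, in lists of 5 to 8 measured genes. Of 16 listed monocyte and macrophage markers, which could bring Flt1, 6 were measured, and 4 rose and 1 fell, with a median of 0.90. The genes that rose were C1qa (1.89), C1qb (0.64), C1qc (1.15) and Mrc1 (1.24). Marco fell by 2.54 ± 0.28 (limma adjusted p = 7.994e-05), and Lyz2 (-0.17) did not pass. Of lymphocyte markers, which could bring Icam2, 4 rose and 0 fell of 7, with a median of 0.52. Of platelet markers Gp9 rose (0.43), while Itga2b (0.16) and Pf4 (-0.04) did not pass; Gp9 was lost without mouse 1, 2 or 4. Of mural cell markers 0 rose and 3 fell of 8 (median -0.30), of type 1 epithelium markers 0 rose and 4 fell of 5 (median -0.55), and of cycling cell markers 7 rose and 0 fell of 8 (median 0.71). Of airway epithelium markers 2 rose and 0 fell of 7 (median 0.00). Among the genes counted here, Clic5 of type 1 epithelium lost its call without any 1 of the 4 mice and had -0.07 on the Cy3 arrays alone. The mural gene Des and the lymphocyte gene Cd79b lost theirs without mouse 1 or 3, and the epithelial gene Krt18 without mouse 4. On the Cy3 arrays alone Cd79b, Krt18, the lymphocyte gene Cd3g and the cycling genes Aurka and Cdk1 were also not called. On the Cy5 arrays alone Des, the cycling gene Tpx2 and Gp9 were not called. Gp9 had 0.14 on those arrays (limma adjusted p = 0.247) and 0.72 on the Cy3 arrays alone. The part of any of these cells in the values of the 4 genes was not tested.

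The named genes with ratios closest to each gene over the 8 arrays were found by the root mean square difference on the log2 scale, among 8644 other genes. For Plvap they were Gabpa (0.136, r = 0.97), Hnrnpa3 (0.154, r = 0.96) and Galnt18 (0.166, r = 0.98). For Sox17 they were Phlda3 (0.108, r = 0.76), Incenp (0.123, r = 0.74) and Cyth4 (0.124, r = 0.78). For Icam2 the nearest were farther away: Myo10 (0.30, r = 0.79), Postn (0.322, r = 0.77) and Nup155 (0.325, r = 0.82). For the mean of the Flt1 probes, which stands for neither probe, they were Dnajb3 (0.139, r = 0.91), Dnajc8 (0.139, r = 0.92) and Ifitm2 (0.158, r = 0.95). The 8 arrays are 4 mice measured in pairs against the same pool, so these are descriptions of likeness.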

How the data were processed

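The authors deposited a log2 ratio for each probe on each 2-colour array. The scale was inferred from the values, and how images were read, corrected and normalized is not given in the sources used here. RNA came from RNeasy kits and took up Cy3 or Cy5 by indirect labelling, per the labels' protocols. Array medians lay between -0.09 and 0.01. Values beyond 10 in size (498) were set to missing, and 706 were missing as deposited. Spot intensities were not used here, so dim probes could not be filtered.

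Gene names come from the platform annotation. No source pairs its probe numbers with the value table; a row equal to the number plus 11 was inferred, for numbers up to 20237, so a single name can be wrong. At that offset the means of probes of the same gene correlated at 0.23 (Spearman, 4735 pairs), against at most 0.05 at 120 other offsets. Within the 1000 numbers around each of the 5 probes it was 0.225 to 0.291, against at most 0.154. Older symbols were replaced by those that RefSeq (GRCm38.p6) pairs with the same gene identifier.

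The arrays of a mouse were averaged (n = 4 mice), and probes with a value in each mouse (20621) entered a two-sided test of the mean ratio against 0 (R 4.3.3, limma 3.58.1, lmFit and eBayes, Benjamini-Hochberg, adjusted p under 0.05). This leaves out the spread of the control, which is 1 pool. Listed genes were tested on values averaged over probes. Differences between mice and dye effects were tested as given above. Each test was checked on simulated data. Plots used Python 3.11.15 with matplotlib 3.10.9.

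Named genes followed a rule: every probe of the 4 genes, up to 8 called genes per vascular list, direct partners, and the 3 nearest genes by root mean square difference. Genes named beyond it (such as Pecam1, Cdh5, Emcn, Icam1, Notch1, Notch4, Erg, Fli1 and markers that did not pass) were chosen after their values were seen. Markers of other cells were counted by list, and not every called one is named. In the lymphocyte, mural, type 1, airway epithelium and cycling lists, the called genes named are ones that lost their call under an alternative. The 4 genes and the lists were chosen with earlier results of these data known. Alternatives were leaving out each mouse, 1 dye orientation, centring, quantile normalization, keeping extreme values, a mouse block, complete probes, other summaries of probes and, added after seeing the data, leaving out 1 array and a gene-level F test.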

Additional observations from a re-analysis of the deposited data

Results flagged for a closer look

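Of 67 results checked (the 5 probes and the listed genes that were called), 3 had 1 mouse far from the other 3; chance gives this in about 1 of 20 groups. The ratio of the gap to the whole range was 0.865 for Klf6, with -0.72 in mouse 4 against -0.24 to -0.31 in the others. It was 0.899 for Rbpj, with 0.61 in mouse 3 against 0.22 to 0.26. It was 0.837 for the macrophage gene Marco, with -2.96 in mouse 3 against -2.36 to -2.46. Of the probes of Icam2, Flt1, Plvap and Sox17, 0 of 5 had such a mouse.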

How the results depend on the processing

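Icam2, Flt1 row 3082, Plvap and Sox17 kept their sign under every alternative run, and each moved by less than 1 SD. Without each mouse in turn, Icam2 lay between -1.12 and -0.78, Flt1 row 3082 between -1.27 and -0.97, Plvap between -0.78 and -0.37 and Sox17 between 0.50 and 0.64, while Flt1 row 2265 ran from -0.28 to 0.028 and so changed sign. Without each mouse, 1011 to 1890 probes were higher and 1536 to 2193 lower, against 2283 and 3019 with all mice, and on the Cy3 arrays alone 1208 were higher and 1982 lower. The genes of the vascular lists that rose numbered 5 to 8 without each mouse and 4 on the Cy3 arrays alone. Those that fell numbered 14 to 24 without each mouse (14 without mouse 2). Of the 36 called, 21 to 28 kept their call without each mouse, 35 without the wide array of mouse 4, and 0 changed sign.

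The count of probes that differ between mice, 201, was 84 without the dye covariate, 497 after quantile normalization and 381 without the wide array. Leaving out each mouse gave 0 to 495 by limma; the 0 came without mouse 1 (2965 at an unadjusted p under 0.05) and without mouse 3 (2177). For Plvap the adjusted p fell to 0.0433 after quantile normalization and 0.0216 at the gene level, and was 0.106 to 0.353 without each mouse. The dye effect gave 0 to 1 probes without each mouse (4771 at an unadjusted p under 0.05 by limma where it was 0). The halved dye difference ran from -0.0075 to 0.16 for Flt1 row 2265 and from -0.0328 to 0.0287 for Sox17. The causes were not tested. No paired analysis was possible because the samples form 1 group, measured against 1 pool. The intensity of the spots is unknown, so what signal over background limits could not be assessed.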

Other observations

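Some markers of other cells differed between mice by more than any of the 4 genes, at the gene level by limma's F test. The pericyte gene Rgs5 had log2 ratios of 1.67, -0.60, 1.83 and 0.46 in mice 1 to 4 (adjusted p = 0.00383). The cytotoxic cell gene Nkg7 had 1.41, -0.38, 0.07 and -1.09 (adjusted p = 0.0049). The club cell gene Cyp2f2 had -1.71, 0.11, -2.15 and 0.04 (adjusted p = 0.0049). Rgs5 was thus lowest in mouse 2 and Nkg7 in mouse 4, while Cyp2f2 was lowest in mice 1 and 3. The mean over mice passed for none of Rgs5, Nkg7 and Cyp2f2 (limma adjusted p = 0.122, 0.995 and 0.104).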
